A study of Homo sapiens with 8 samples.

Results

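TEC is the label that the GENCODE annotation of the human genome gives to loci whose transcription rests on clusters of unspliced cDNA ends carrying signs of polyadenylation and that still await follow-up in the laboratory. GENCODE release 44 lists 1056 TEC genes, of which 1027 (97.25%) have 1 exon. The loci described here are the 541 TEC genes that were matched in both deposited tables and lay above 0 in at least 3 of the 6 short-read columns. A match was made by identifier for 217 of them. For the other 324 it was made by position, with an assembled gene on the same strand whose span shared at least 0.5 of the joint length. They were 541 of the 34476 genes of the short-read table that met the same minimum.

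The study compared RNA that stays on chromatin with RNA released into the nucleoplasm in HAP1, a human leukemia line with a near-haploid genome that was derived from KBM-7. Nuclei were extracted with urea and an NP-40 substitute, and centrifugation gave a chromatin pellet and a nucleoplasm supernatant. The 8 libraries form 3 groups of untreated cells, namely 3 short-read chromatin libraries, 3 short-read nucleoplasm libraries and 2 long-read chromatin libraries. Both short-read fractions were made from 3 independent cultures, and no label says whether a replicate number stands for the same culture in both. All fractions received the same volume of ERCC spike-in RNA, and ribosomal RNA was depleted from all. HAP1 is 1 line, so spread between libraries is spread between cultures of that line. Every sample carries the word chromatin in its RNA fraction field, and the titles were used to tell the fractions. MALAT1 and PVT1, nuclear lncRNAs, were higher in the libraries titled chromatin by 3.09 and 3.11 on the log2 scale, while the mRNAs GAPDH and B2M were lower there by log2 fold changes of -2.35 and -2.11. BCR and ABL1, fused in the parent line, averaged 739 and 925 normalized counts in chromatin. The markers PTPRC, SPI1 and ALB were at 0 in all 6 libraries, CD34 did not exceed 3.60, and the fibroblast gene COL1A1 averaged 470 in chromatin and 794 in nucleoplasm.

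RNA polymerase II transcribes through introns and past the ends of genes before the transcript is cleaved, and this unspliced RNA is held at its template. A released mRNA, in contrast, is spliced, polyadenylated and free to leave. Loci without introns of their own, such as TEC loci, can lie inside the intron of a host gene, behind the end of a gene, opposite a gene or apart from all genes, so their location was kept in view throughout. In these counts the unspliced RNA of a host gene and a separate RNA of the TEC locus on the same strand cannot be told apart.

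Of the 541 loci, 226 lay within an intron of a same-strand gene, 191 were intergenic, 107 lay antisense to a gene and 17 overlapped an exon of another gene on the same strand. Locations refer to GENCODE 44 genes on hg38, the build of the tables. Their spans ran from 111 to 8338 bases, with a median of 1746. They lay on 23 chromosomes, most often on chromosome 16 (68 of its 132 TEC genes), chromosome 17 (58 of 99) and chromosome 19 (42 of 72).

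The ends of the loci are shown first, since polyadenylation signs are part of how the TEC class is defined. Each line gives the last 50 bases of the GENCODE locus and the 20 bases after it, read from hg38, 5′ to 3′ on the strand of the locus. Capitals mark AATAAA or ATTAAA, the hexamers read by the cleavage and polyadenylation machinery, searched on that strand only and within the last 50 bases. The lines were chosen among the named loci to show ends with a hexamer, ends followed by a run of A, and ends with neither.
ENSG00000279951 (chr13:20094095-20094164, plus strand): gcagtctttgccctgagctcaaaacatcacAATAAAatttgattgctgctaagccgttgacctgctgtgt
ENSG00000279133 (chr17:62003680-62003749, minus strand): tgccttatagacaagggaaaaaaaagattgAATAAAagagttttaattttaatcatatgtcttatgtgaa
ENSG00000279207 (chr17:58101430-58101499, plus strand): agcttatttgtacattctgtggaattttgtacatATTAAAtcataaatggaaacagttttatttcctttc
ENSG00000280184 (chr6:145789250-145789319, minus strand): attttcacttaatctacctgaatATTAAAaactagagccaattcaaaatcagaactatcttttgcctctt
ENSG00000279838 (chr1:185292364-185292433, minus strand): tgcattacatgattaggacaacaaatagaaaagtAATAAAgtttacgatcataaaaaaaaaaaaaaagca
ENSG00000279502 (chr10:72756967-72757036, plus strand): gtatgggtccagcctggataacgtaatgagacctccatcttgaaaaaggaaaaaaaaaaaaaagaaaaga
ENSG00000280392 (chr16:53994405-53994474, plus strand): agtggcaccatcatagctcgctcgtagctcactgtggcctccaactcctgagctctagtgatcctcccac
ENSG00000279865 (chr12:8080361-8080430, minus strand): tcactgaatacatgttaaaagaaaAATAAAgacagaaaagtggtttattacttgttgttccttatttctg
ENSG00000280325 (chr7:84939315-84939384, minus strand): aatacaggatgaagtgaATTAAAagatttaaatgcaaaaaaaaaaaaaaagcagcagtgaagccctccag
ENSG00000279951 and ENSG00000280184 ended in a hexamer with few A after it. ENSG00000279502, inside an intron, carried no hexamer and was followed by 20 bases of which 90% were A. ENSG00000279838 had both, a hexamer and 85% A.

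One of the 2 hexamers was found in the last 50 bases of 197 of the 541 loci (36.4%) and of 33.9% of all 1056 TEC genes. The share was 39.8% for all other genes, 47.1% for lncRNA genes, 72.0% for protein-coding genes and 3.59% for processed pseudogenes. A stretch with at least 60% A followed 88 of the 541 loci (16.3%) and 11.4% of all 1056 TEC genes. It followed 5.29% of all other genes and 3.64% of lncRNA genes, none of which were chosen by their level. Of these 88 loci, 60 were intronic (68.2%), while 36.6% of the loci without such a stretch were. A match of letters is a description and not evidence that an end is used.

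First, all 541 loci were considered without a minimum level. Levels are the deposited normalized counts, that is, reads per gene divided by the size factor of the library. The mean level was higher in chromatin for 503 loci (93.0%), against 55.9% of the 34476 genes above 0 in 3 columns. For 442 loci (81.7%) every chromatin library lay above every nucleoplasm library, against 46.2% of those genes. The opposite order, with every nucleoplasm library above every chromatin library, was found for 19 loci (3.51%), against 37.5% of those genes. The median of the mean levels was 14.7 in chromatin and 2.30 in nucleoplasm, so a typical TEC locus was a weakly expressed feature. Among the 541 loci, 349 were above 0 in all 6 libraries, 34 were above 0 in chromatin alone and 0 in nucleoplasm alone. Of the 34476 genes, 28184 were above 0 in all 6 libraries, 1153 in chromatin alone and 202 in nucleoplasm alone. The minimum of 3 columns can be met by a single fraction. Before scaling by size factors, the counts of all genes and ERCC RNA summed to 38895027 to 43804918 in the chromatin libraries. In the nucleoplasm libraries they summed to 75737601 to 79523938. These sums cover only what was assigned to genes and ERCC RNA, so they do not give the sequencing depth of a library.

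Summed over the 541 loci, the normalized counts were 24691, 27332 and 24386 in the chromatin libraries and 8951, 9188 and 8972 in the nucleoplasm libraries, a ratio of the means of 2.82. The groups did not overlap, but an exact two-sided permutation test of 3 against 3 libraries cannot go below p = 0.1, which was its value here. Per 1000000 normalized counts of all genes the sums were 530 ± 49.6 and 136 ± 3.19 (mean ± SD, n = 3 each). Per 1000 normalized counts of ERCC RNA, in contrast, they were 202, 289 and 247 in chromatin and 180, 246 and 229 in nucleoplasm, so on that scale the groups overlapped and the ratio was 1.13 (unpaired exact permutation p = 0.4). Chromatin was nevertheless the higher of the same-numbered libraries in 3 of 3 cases, and an exact permutation test within these pairs, added after seeing the data, gave p = 0.25, the smallest that 3 pairs allow. The share of intronic loci in the TEC sum was 47.1% ± 3.33 for chromatin and 18.8% ± 0.551 for nucleoplasm (mean ± SD, n = 3). On the ERCC scale their sums, 92.0, 147 and 111 in chromatin and 34.7, 46.0 and 41.8 in nucleoplasm, remained apart (exact permutation p = 0.1). In bulk fractions, more RNA in few nuclei and less RNA in many nuclei cannot be told apart.

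**Figure D1:**
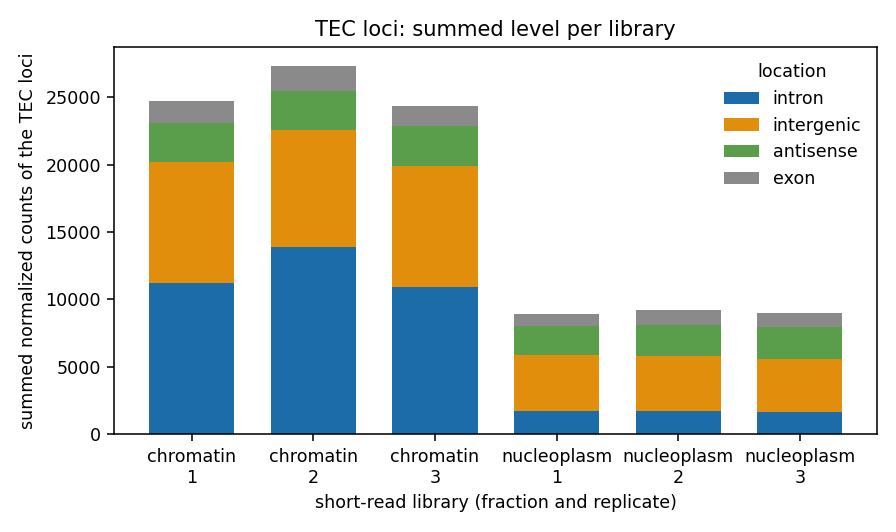
Summed normalized counts of the 541 TEC loci (y axis) in each of the 6 short-read libraries (x axis), stacked by location, with no error bars since each bar is 1 library. The 3 chromatin bars reach 24386 to 27332 and the 3 nucleoplasm bars 8951 to 9188, and intronic loci take up the largest share of the difference.

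Genes that reached 10 normalized counts in 3 or more libraries were then tested with limma on log2(normalized count + 1), with Benjamini-Hochberg adjustment over all 26066 tested genes, of which 278 were TEC loci. The other 263 TEC loci were not tested and had a mean of at most 17.5 in chromatin and 8.29 in nucleoplasm. Calls required an adjusted p-value below 0.05 together with a change of more than 4-fold. In chromatin, 187 of the 278 tested loci were called (67.3%), compared with 21.2% of all tested genes, 37.5% of lncRNA genes, 15.9% of processed pseudogenes and 3.94% of protein-coding genes. In nucleoplasm, 3 loci were called (1.08%), compared with 8.47% of all tested genes. A locus could pass the level minimum through its chromatin libraries alone, so these shares describe the tested loci and not all 541. With no level minimum, 221 of the 529 loci with a span over 200 bases were called in chromatin (41.8%), against 20.0% of all genes in that fit. The log2 fold change of the tested loci had a median of 2.70 and ran from -2.84 to 6.15, with 258 above 0, while the median over all tested genes was -0.02.

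Without a fold minimum, 252 TEC loci were higher in chromatin at an adjusted p under 0.05, against 44.2% of all tested genes, and 12 were lower, against 45.2%. When the libraries were instead scaled to the same ERCC total, the median of all tested genes moved to -1.33 and that of the TEC loci to 1.48, so the distance between the medians was 2.81 instead of 2.72. On that scale 100 TEC loci were called in chromatin (35.97%), against 11.9% of all tested genes, and 8 in nucleoplasm, against 34.4%. Of all genes called, 71.5% were called in chromatin in the main fit and 25.7% on the ERCC scale. Among the TEC loci called, these shares were 98.4% and 92.6%. The 100 loci were all among the 187.

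The shares and medians differed by location. In introns, 123 of 144 tested loci were called in chromatin (85.4%), with a median log2 fold change of 3.18 and 0 loci called in nucleoplasm. Intergenic loci followed with 43 of 83 (51.8%) and a median of 2.07, and antisense loci with 19 of 42 (45.2%) and a median of 1.80. Of the 9 loci that overlap an exon, 2 were called, and their median was 1.54. These shares stood above those of lncRNA genes of the same location for 3 classes, at 73.2% in introns, 34.3% between genes and 29.99% antisense, and below them in the exon class, at 30.2%. Assembled genes with no GENCODE match gave 82.1% in introns, 46.3% between genes and 42.6% antisense, and their intronic median of 3.74 exceeded that of TEC loci. The classes were not tested against each other, and their levels in chromatin differed, with medians of 55.2 for intronic, 43.4 for intergenic and 33.4 for antisense TEC loci.

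**Figure D2:**
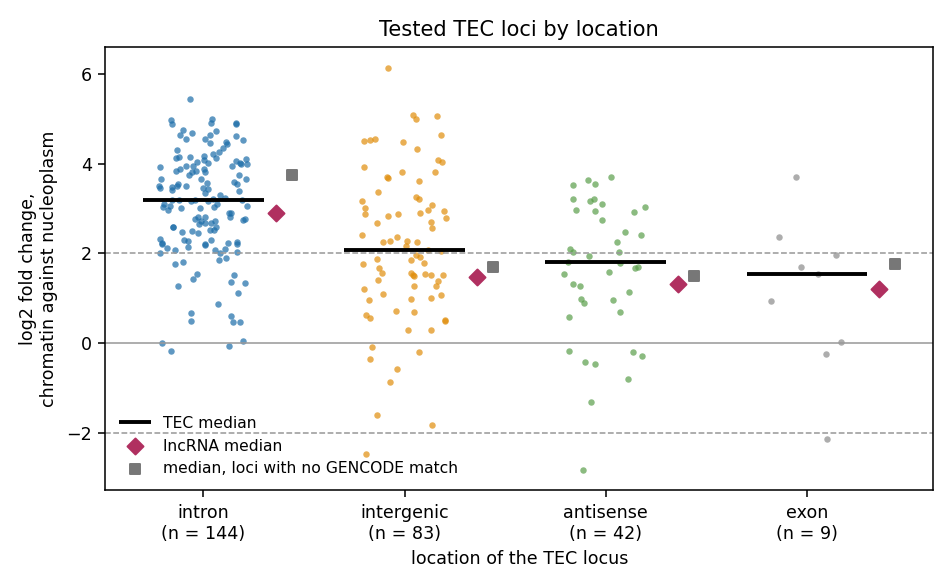
Log2 fold change between chromatin and nucleoplasm (y axis) of each of the 278 tested TEC loci (points), by location (x axis), with the TEC median as a bar and the medians of lncRNA genes and of genes with no GENCODE match as a diamond and a square. Dashed lines mark the 4-fold minimum. Intronic loci have a TEC median of 3.18, and the 3 loci below the lower line are an intergenic, an antisense and an exon-overlapping locus.

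Intronic loci made up 45.5% of the TEC sum in chromatin replicate 1, 50.9% in replicate 2 and 44.9% in replicate 3. Of the 144 tested intronic TEC loci, 103 had their highest chromatin value in replicate 2 (71.5%), as did 60.8% of the intronic genes that are not TEC loci and 35.8% of all tested genes. Without that library the intronic median was 2.99 and 187 TEC loci were again called in chromatin. What this library's higher intronic signal came from was not tested.

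Base composition also moved with the fold change. The 139 loci with a GC content below the median of 45.8% had a median log2 fold change of 3.17 and the other 139 one of 2.22. The 57 tested loci followed by an A-rich stretch had a median of 3.19, against 2.46 for the other 221, and these loci were more often intronic, as given above. The part of either feature in the differences was not tested.

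The TEC loci with the highest chromatin levels came from several settings. ENSG00000279561 (chr9:41269916-41273997, minus strand) is intergenic, 36819 bases beyond the nearest gene end on its strand. Its normalized counts were 920, 766 and 834 in chromatin and 191, 211 and 196 in nucleoplasm. The groups were well apart, and the log2 fold change was 2.07 ± 0.08 (SE) with an adjusted p of 4.75e-08 (limma). The change was 1.999 without chromatin replicate 1 and 0.75 on the ERCC scale, both under the 4-fold minimum, and 28.5% of the locus matched ENSG00000229422, an lncRNA gene, at 99.1% identity.

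ENSG00000279133 (chr17:62003700-62007518, minus strand) spans RN7SL800P, a copy of the 7SL RNA gene, and so fell in the exon class. Its values were 706, 978 and 777 in chromatin and 81.6, 226 and 209 in nucleoplasm. Nucleoplasm replicate 1 stood well below its group, although the fractions did not overlap. The log2 fold change was 2.37 ± 0.35 (adjusted p = 0.000199, limma). It was 1.90 without nucleoplasm replicate 1 and 1.05 on the ERCC scale, and each of these ends the call.

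ENSG00000279088 (chr10:73742995-73744230, minus strand) is an intergenic locus of 1236 bases. Normalized counts of 848, 805 and 797 in chromatin stood against 116, 128 and 106 in nucleoplasm, with little spread in either fraction. The log2 fold change was 2.80 ± 0.08 (adjusted p = 1.50e-08, limma), and 1.48 on the ERCC scale, where the locus was not called. Its chromatin level per kilobase, 661, was the highest of the 541 loci.

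ENSG00000280099 (chr1:85152487-85154203, minus strand) begins 2686 bases after SYDE2. Its chromatin libraries gave 720, 731 and 730 and its nucleoplasm libraries 553, 497 and 488. The fractions were separate but close, with a log2 fold change of 0.51 ± 0.06 (adjusted p = 7.34e-05, limma), which turned to -0.82 on the ERCC scale. This locus was thus abundant without being called.

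ENSG00000279207 (chr17:58095672-58101479, plus strand) starts 130 bases after DYNLL2, the gene of a dynein light chain. It had 624, 513 and 622 normalized counts in chromatin, above the 190, 171 and 187 of nucleoplasm (log2 fold change 1.67 ± 0.09, adjusted p = 3.55e-07, limma). On the ERCC scale it was 0.35 (adjusted p = 0.108, limma), which did not pass, and with libraries scaled to the same total it was 2.13, past the 4-fold minimum. The log2 fold change of DYNLL2 itself was -0.81, of the opposite sign.

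ENSG00000278991 (chr15:77063397-77064910, minus strand) lies in an intron of TSPAN3, a gene of the tetraspanin membrane proteins. The locus had 503, 665 and 519 normalized counts in chromatin and 17.6, 27.5 and 24.5 in nucleoplasm, with chromatin replicate 2 the highest. Its log2 fold change was 4.55 ± 0.18 (adjusted p = 4.46e-08, limma).

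Of the 6 called loci with the largest changes towards chromatin, 3 lay within about 2 kb after a gene end on the same strand and 2 in introns. ENSG00000279951 (chr13:20092632-20094144, plus strand), 803 bases after ZMYM2, a zinc finger gene of chromatin regulators, had 123, 131 and 147 normalized counts in chromatin and 2.63, 0.861 and 0 in nucleoplasm. Only 4 reads were counted in the 3 nucleoplasm libraries, against 349 in chromatin. The log2 fold change was 6.15 ± 0.42 (adjusted p = 1.25e-06, limma), which depends on the pseudocount, and the ratio of the pooled counts was 117 (95% exact binomial interval 45.2 to 431, which covers counting error only).

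ENSG00000279838 (chr1:185292384-185294372, minus strand), 2016 bases after IVNS1ABP, had 190, 263 and 299 in chromatin and 7.90, 2.58 and 10.98 in nucleoplasm. The spread was wide in both fractions, but they did not overlap (log2 fold change 5.09 ± 0.41, adjusted p = 3.71e-06, limma). ENSG00000280184 (chr6:145789270-145791973, minus strand), 1529 bases after FBXO30, an F-box ubiquitin ligase gene, had 87.3, 88.9 and 141 against 1.76, 2.58 and 2.53 (4.99 ± 0.25, adjusted p = 1.62e-07, limma). The genes before these loci had smaller log2 fold changes, 1.11 for ZMYM2, 0.35 for IVNS1ABP and -0.02 for FBXO30.

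ENSG00000280392 (chr16:53991012-53994454, plus strand) is inside an intron of FTO, which encodes an RNA demethylase. Its normalized counts were 183, 306 and 170 in chromatin and 2.63, 5.17 and 4.22 in nucleoplasm (log2 fold change 5.44 ± 0.28, adjusted p = 2.02e-07, limma). As in TSPAN3, chromatin replicate 2 was the highest library. ENSG00000279502 (chr10:72756398-72757016, plus strand) is inside an intron of MCU, the gene of the mitochondrial calcium uniporter, and had 52.4, 64.9 and 47.2 against 0.878, 1.72 and 0. With 3 reads in nucleoplasm, the ratio of its pooled counts was 63.4 (exact binomial interval 21.3 to 311). ENSG00000280232 (chr6:85498441-85499058, minus strand) lies 5718 bases after SNX14, a sorting nexin gene, and had 58.2, 46.8 and 45.0 in chromatin and 0.878, 0.861 and 0 in nucleoplasm. Its 2 nucleoplasm reads gave a ratio of 87.0 (exact binomial interval 23.6 to 726). The fitted log2 fold changes of these last loci were 5.01 ± 0.38 and 5.06 ± 0.32 (adjusted p = 2.51e-06 and 7.81e-07, limma).

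Among the tested loci 1 was at 0 in all nucleoplasm libraries, ENSG00000279796 (chr10:114424445-114427398, minus strand), found after its values were seen. It lies 3714 bases after ABLIM1 and had 25.6, 14.4 and 28.5 normalized counts in chromatin. Their mean was 26.6-fold the level that 3 reads over the nucleoplasm group would give, a level chosen for reference.

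**Figure D3:**
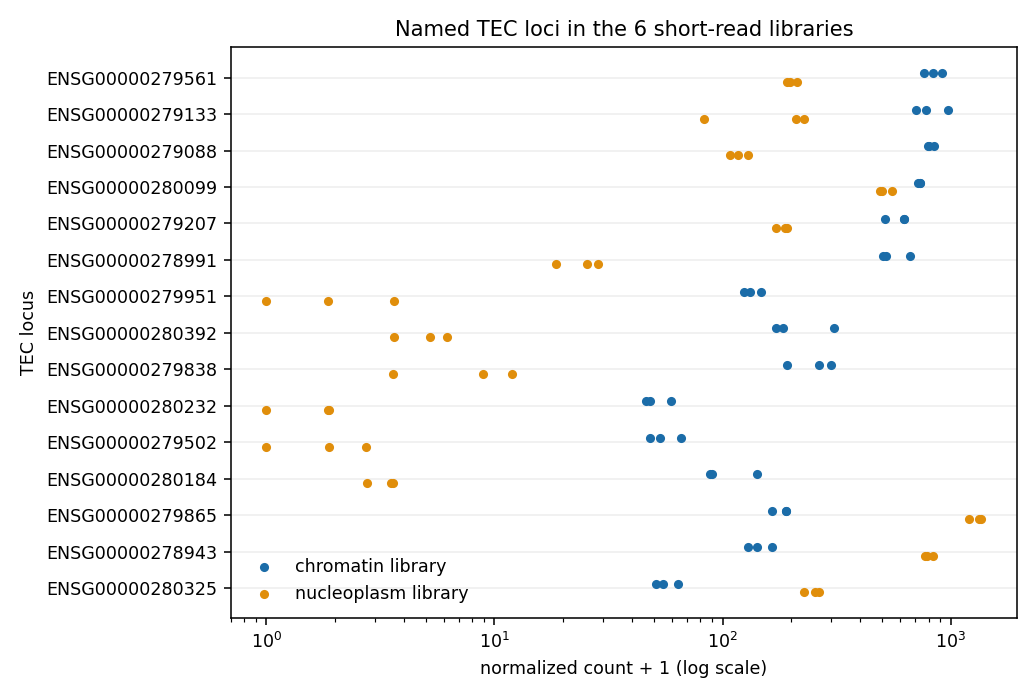
Normalized count + 1 (x axis, log scale) of 15 named TEC loci (y axis) in the 3 chromatin and 3 nucleoplasm libraries, 1 point per library. The upper 6 loci have the highest chromatin levels, the next 6 the largest changes towards chromatin, and the lowest 3 are those called in nucleoplasm, with chromatin values between 50.1 and 189 and nucleoplasm values between 227 and 1363.

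For intronic loci the host gene gives a reference within the same libraries. Of the 144 tested intronic loci, 125 had a tested host, in 109 host genes, 111 of these pairs with a protein-coding host. The loci had a median log2 fold change of 3.20 and the hosts one of -0.003, and 61 of the hosts lay above 0. The ratio of locus to host was tested per library with limma, adjusted over all 3228 intronic genes of the table with a tested host. It was higher in chromatin for 116 of 125 TEC loci (92.8%), against 83.6% of the 3228, and lower for 3 (2.40%), against 9.39%. The median difference was 3.13 for TEC loci and 3.15 for intronic genes that are not TEC loci. The scaling of libraries cancels in such a ratio except for the effect of the pseudocount. At loci with few counts, scaling can therefore still alter the ratio, and the ratios were not tested on the ERCC scale. With a pseudocount of 5, 112 of the 125 ratios were higher in chromatin and 4 were lower.

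The largest ratio was that of ENSG00000279733 (chr11:88165575-88167691, minus strand) to RAB38, a small GTPase gene of melanosome trafficking. The locus had 60.6, 70.9 and 71.4 normalized counts in chromatin and 2.63, 3.44 and 0.845 in nucleoplasm. RAB38, in reverse order, averaged 168 ± 15.7 and 482 ± 13.1 normalized counts (chromatin, then nucleoplasm; mean ± SD, n = 3). The log2 ratio differed by 5.98 ± 0.33 (adjusted p = 3.06e-07, limma). The next 3 were the loci in MCU (5.92 ± 0.40), FTO (5.76 ± 0.29) and TSPAN3 (5.68 ± 0.23), with adjusted p-values from 6.28e-08 to 9.84e-07 (limma). The log2 fold changes of these hosts were -0.92, -0.31 and -1.13.

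The ratio was lower in chromatin for 3 loci, and each had an lncRNA gene as host. ENSG00000279310 (chr12:67065018-67065278, minus strand) had 19.8, 51.6 and 23.1 in chromatin and 0, 1.72 and 1.69 in nucleoplasm, so it was itself called in chromatin. Its host ENSG00000257083 averaged 7209 and 190 and changed by 5.22, more than the locus (log2 ratio -1.28 ± 0.46, adjusted p = 0.0247, limma). ENSG00000284471 (chr9:61982796-61986934, plus strand), in FAM27C, had 73.4, 102 and 65.9 against 34.2, 40.5 and 32.9, with a ratio change of -0.87 ± 0.17 (adjusted p = 0.00121, limma). ENSG00000280128 (chr6:30282349-30286054, minus strand), in HCG17, had 48.9, 60.05 and 51.6 against 34.2, 34.4 and 30.4, with a ratio change of -0.64 ± 0.13 (adjusted p = 0.00143, limma). The loci in FAM27C and HCG17 were themselves higher in chromatin, by log2 fold changes of 1.12 and 0.68, which turned to -0.18 and -0.62 on the ERCC scale. Next among the called ratios was a small rise, that of ENSG00000279700 (chr12:132565071-132566425, plus strand) to FBRSL1. The locus had 59.4, 51.6 and 47.2 in chromatin and 55.3, 54.2 and 43.9 in nucleoplasm, so its fractions overlapped, and the ratio changed by 0.73 ± 0.19 (adjusted p = 0.00615, limma). With protein-coding hosts alone, 108 of 111 ratios were higher and 0 lower.

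For 6 loci the ratio was not called in either direction. Their hosts were ZNF800, FRG1HP, TTN-AS1, ZNF862, MIR99AHG and MBD5, whose log2 fold changes lay between 1.68 and 4.22. TTN-AS1, MIR99AHG, ZNF862 and MBD5 were past the 4-fold minimum in chromatin themselves, so locus and host were high together.

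Several hosts held more than 1 tested locus, and such loci share a host and are not independent of each other. There were 12 such hosts with 28 loci, and 4 of them, ATP9B, MSI2, CMIP and ZFHX3, held 3. Within ZFHX3, a transcription factor gene, the loci ENSG00000279757, ENSG00000280092 and ENSG00000279591 changed by 3.41, 4.63 and 4.74, while ZFHX3 changed by 0.21. Within MSI2, an RNA-binding protein gene, the 3 loci changed by 3.96, 4.55 and 3.11, and within CMIP by 3.88, 3.01 and 3.89. The range within a host was 0.57 at the median and at most 1.44. In FBRSL1 both loci stayed near the middle of all genes, at 0.62 and 0.04.

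For 27 TEC loci the introns of the same host also held tested assembled genes with no GENCODE match, a comparison chosen after seeing the data. Annotated genes were not among these neighbours. The TEC locus lay above the median of these neighbours in 10 of 27 cases, and the median difference in log2 fold change was -0.09 (interquartile range -0.68 to 0.28). The TEC locus was denser in normalized counts per kilobase in 4 of 27, with a median chromatin density of 40.1 against 112 for the neighbours. The neighbours are in the table because they were assembled from reads, while TEC loci come from the annotation. Their density is thus partly set by that selection, and the difference says nothing firm about TEC loci.

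**Figure D4:**
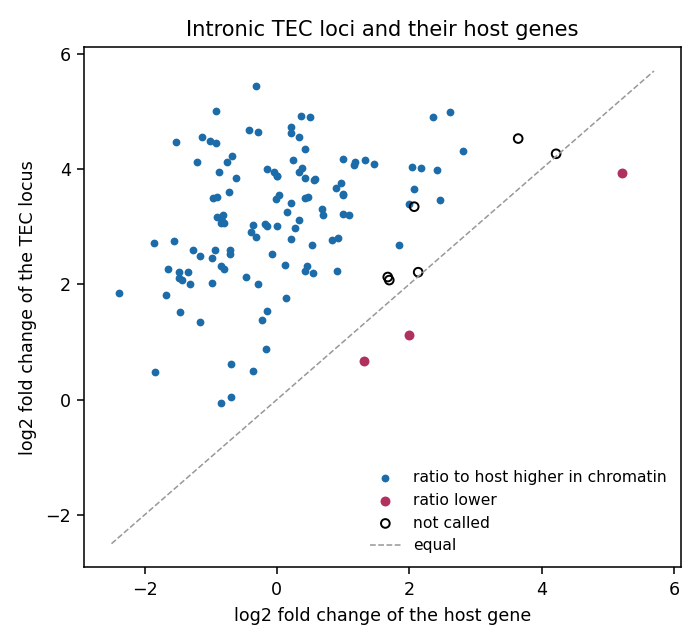
Log2 fold change between chromatin and nucleoplasm of 125 intronic TEC loci (y axis) against that of their host genes (x axis), 1 point per locus, with the dashed line at equal change. Filled blue points are the 116 loci with a higher ratio to the host in chromatin, red points the 3 with a lower ratio, and open points the 6 that were not called.

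Intergenic loci were divided by their distance to the next gene end upstream on the same strand, with 5 kb as the limit, chosen after seeing the data. The 32 loci within 5 kb had a median log2 fold change of 2.77, with 20 called in chromatin (62.5%), and the 51 farther loci one of 1.78, with 23 called (45.1%). Of the near loci, 11 began within 1 kb of the gene end, and the median distance was 1859 bases. For 28 of them the upstream gene was tested too, and 24 of these loci had the higher log2 fold change. The median was 2.90 for the loci and -0.28 for the genes. ENSG00000275106, 864 bases after TNPO3, a nuclear import receptor gene, changed by 4.05 where TNPO3 changed by -0.70. ENSG00000279349, 4368 bases after ATG3, an autophagy gene, changed by 3.83 where ATG3 changed by -1.40. ENSG00000280173, 134 bases after KLHL18, was lower in chromatin, with a log2 fold change of -0.35 (adjusted p = 0.00895, limma) beside -0.89 for KLHL18. Whether reads at these loci continue from the gene upstream was not tested.

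Antisense loci were set beside the gene on the other strand. The short-read libraries preserve strand, and of the 42 tested antisense loci 30 had a tested partner. The loci had a median log2 fold change of 1.99 and the partners one of -0.48, with the locus above the partner in 26 pairs. In chromatin the normalized count of the locus was a median of 4.79% of that of the whole partner gene, with no adjustment for length, and 3 loci exceeded their partner. Of these 30, 5 were below 1% of the partner, ENSG00000279662, ENSG00000279689, ENSG00000279692, ENSG00000280067 and RBM12B-AS1, a level at which a small share of reads assigned to the wrong strand would count. That share was not tested. Only partner reads over the shared stretch could be assigned in this way, and these were not counted apart from the whole gene. ENSG00000279696, opposite CEP295, a centriole gene, was the most abundant of these antisense loci, with a mean chromatin level of 520, and changed by 3.23 where CEP295 changed by 2.54.

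Of the 12 loci lower in chromatin at an adjusted p under 0.05, 3 were past the 4-fold minimum, and the next, ENSG00000280009, had a log2 fold change of -1.83. ENSG00000279865 (chr12:8080381-8082163, minus strand), antisense to NECAP1, had 189, 165 and 189 normalized counts in chromatin and 1198, 1329 and 1363 in nucleoplasm. Its log2 fold change was -2.84 ± 0.08 (adjusted p = 1.31e-08, limma), and its nucleoplasm mean of 1297 was the highest of the 541 loci. A stretch of 13.0% of it matched EEF1A1, the gene of an abundant translation elongation factor, at 97.0% identity.

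ENSG00000278943 (chr4:145376909-145377957, plus strand) starts 656 bases after RTN3P1, a pseudogene of the reticulon gene RTN3. Its values were 141, 128 and 164 in chromatin and 784, 839 and 774 in nucleoplasm (log2 fold change -2.47 ± 0.10, adjusted p = 4.05e-08, limma). RTN3 matched 23.2% of the locus at 95.9% identity. RTN3P1 and RTN3 changed the same way, by -2.18 and -1.97.

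ENSG00000280325 (chr7:84939335-84940256, minus strand) covers ENSG00000232019, an lncRNA gene on the same strand, and reads of the pair cannot be told apart. The normalized counts were 50.1, 62.4 and 53.8 in chromatin and 227, 264 and 253 in nucleoplasm, again without overlap (log2 fold change -2.14 ± 0.12, adjusted p = 2.62e-07, limma). With libraries scaled to the same total the change was -1.69, under the 4-fold minimum, which left 2 loci called in nucleoplasm. Over 56.7% of its length it matched SNHG7, a spliced lncRNA that hosts small nucleolar RNAs, at 96.6% identity, and SNHG7 changed by -0.49. A stretch of 80 bases outside annotated UTRs is shown for the locus and SNHG7, with the 5 differences in capitals, to show how close the sequences are.
ENSG00000280325 (chr7:84939474-84939553, minus strand): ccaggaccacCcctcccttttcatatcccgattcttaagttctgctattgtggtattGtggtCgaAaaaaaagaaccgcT
SNHG7 (chr9:136724781-136724860, minus strand): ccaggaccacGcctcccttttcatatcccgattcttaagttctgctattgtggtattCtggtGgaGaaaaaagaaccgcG
The end of ENSG00000280325, printed with the other ends, holds ATTAAA and, after it, a run of A that reaches the end of the locus.

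In all, 43 of the 278 tested loci matched the transcript of another, non-overlapping gene over at least 100 bases at 95% identity or more, and 15 did so over at least 50% of their length. Counts of such loci are uncertain, since reads may have been shared with the other copy. Some matches, such as ENSG00000278974 to MTRF1L, ran in the opposite orientation, and sharing there would need reads of the other strand. The search was added after the values were seen. The 6 loci with the lowest log2 fold changes included 5 with such a match, and 6 of the 12 loci lower in chromatin at an adjusted p under 0.05 had one. ENSG00000279423 on chromosome 14 matched SNX6 over 100% of its length and changed by -1.61, near SNX6 at -1.85. ENSG00000280060 on chromosome 13 matched LPGAT1, an acyltransferase gene, over its whole length and changed by -1.30, near LPGAT1 at -1.25. ENSG00000280009 (chr5:86305233-86306149, minus strand) was the one among the 6 with no match, at 28.0, 22.8 and 25.2 in chromatin and 102, 87.8 and 87.9 in nucleoplasm (log2 fold change -1.83 ± 0.14, adjusted p = 2.58e-06, limma). The 15 loci copied over at least 50% of their length had a median of 0.98 and the other 263 one of 2.78. Without the 15, 184 loci were called in chromatin and 2 in nucleoplasm.

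Some TEC loci were copies of each other. ENSG00000279303, ENSG00000279967 and ENSG00000279186 on chromosome 21 were identical over 2456 bases and changed by 1.53, 1.53 and 1.55. ENSG00000281741, ENSG00000281571 and ENSG00000280649 on chromosome 1 shared about 99% of their bases and changed by -0.41, -0.28 and -0.17, and ENSG00000279057 and ENSG00000280402 on chromosome 16 changed by 2.47 and 2.53. Values within such a set do not count as separate observations.

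Long-read values were TPM, a length-adjusted share of all assembled transcripts, from direct cDNA of chromatin RNA that had been polyadenylated by enzyme, so priming did not require a natural tail. TPM keeps no depth, and only chromatin was sequenced. Of the 541 loci, 241 were above 0 TPM in replicate 1, 285 in replicate 2, 194 in both (35.9%) and 209 in neither. At 1 TPM or more in both, 80 remained. Some values recurred at loci of different span. ENSG00000279310 and ENSG00000279236 both had 2.196 TPM in replicate 1, and ENSG00000280232 and ENSG00000279836 both had 1.317 TPM in replicate 2. The minimum of 1 TPM lay below these repeated values. TPM gives no read number, and how many reads stood behind a locus was not tested. The share above 0 in both was 52.2% for the tested loci and 18.6% for those not tested. It was 47.7% for antisense, 36.7% for intronic and 29.3% for intergenic loci. The lower share of the less abundant loci was also seen across 4 equal bins of the short-read chromatin level per kilobase, with 19.9% and 19.3% in the lower bins and 43.0% and 61.5% in the upper ones.

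Across the 194 loci, log2(mean TPM + 0.1) and log2 of the short-read chromatin level per kilobase had a Pearson r of 0.35 and a Spearman rho of 0.33, given as a description over loci of the same libraries. The 2 long-read libraries correlated at r = 0.65 (rho = 0.62) over the same loci, and their ratio had an SD of 1.98 on the log2 scale. A locus in 1 long-read library thus said little of its exact level in the other. The A-rich ends were above 0 in both for 38 of 88 loci (43.2%), and the others for 34.4%. For loci with and without a hexamer, the shares were 36.5% and 35.5%.

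The highest mean long-read level was that of ENSG00000279088, the intergenic locus on chromosome 10, at 74.6 and 13.5 TPM. Its libraries differed widely, and in replicate 2 alone the loci ENSG00000278943 and ENSG00000280325 were higher. It was also the locus with the highest short-read level per kilobase. Next came ENSG00000280325 at 33.3 and 24.2 TPM and ENSG00000278943 at 18.9 and 27.8 TPM, both called in nucleoplasm in the short reads. The other two were ENSG00000280649 (chr1:148458814-148459871, plus strand) at 15.1 and 11.97 TPM and ENSG00000281571 (chr1:145214851-145215938, plus strand) at 14.8 and 11.9 TPM, near-identical copies antisense to the lncRNA genes LINC01138 and LINC01145. In short reads ENSG00000280649 had 33.8, 26.4 and 27.4 in chromatin and 32.5, 28.4 and 38.0 in nucleoplasm, and the fractions overlapped (log2 fold change -0.17 ± 0.18, adjusted p = 0.395, limma). ENSG00000281571 had 36.1, 28.8 and 34.03 against 36.9, 39.6 and 43.9, with a log2 fold change of -0.28 ± 0.16 (adjusted p = 0.123, limma). Of the 5 loci with the highest mean long-read levels, ENSG00000279088 was called in chromatin, though not on the ERCC scale. Direct cDNA reads carry no strand, so a long-read level at an antisense or overlapping locus may include RNA of the other gene.

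**Figure D5:**
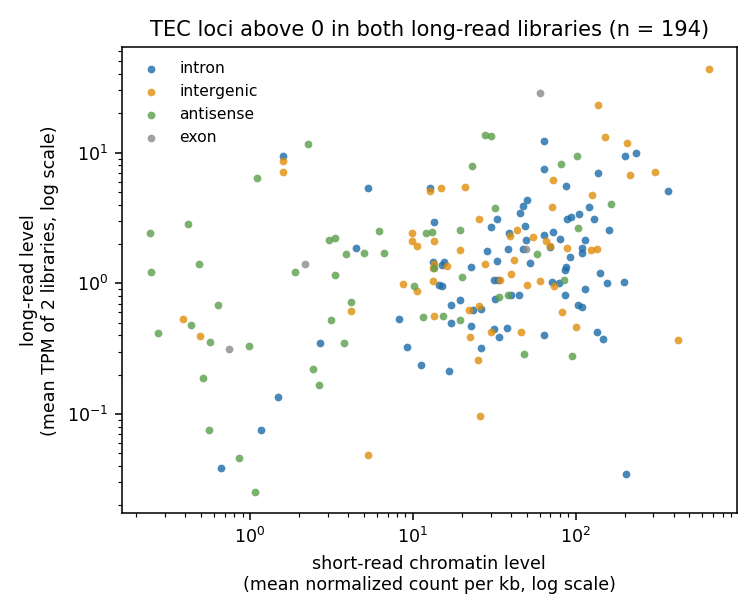
Mean TPM of the 2 long-read chromatin libraries (y axis, log scale) against the mean short-read chromatin level per kilobase (x axis, log scale) of the 194 TEC loci above 0 in both long-read libraries, 1 point per locus, coloured by location. The points spread widely around a weak rise (r = 0.35), and the highest point is ENSG00000279088.

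At the membership minimum, 58 loci were above 0 in exactly 3 columns and 29 in 2. Just inside, ENSG00000279091 and ENSG00000278964 had 3 reads each over the 6 libraries, with mean levels of 0.467 and 0.470. Just outside, ENSG00000279713 and ENSG00000279910 had 7 and 5 reads, all of them in 2 chromatin libraries, with means of 1.31 and 0.959. The minimum thus counted columns and not reads.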

How the data were processed

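Short-read values were deposited gene counts that the authors had scaled with DESeq2's size factors, a normalized signal, after HISAT2 2.1.0 (submitters' processing notes) and StringTie. The values came out as whole reads for 100% of entries at a tolerance of 0.001. Long-read values were deposited StringTie TPM per transcript, which carry no depth. The paper reports unequal read numbers for the HAP1 long-read replicates, and the values were not adjusted for them. Whether strand had been assigned to the reads first was not stated in the sources used here. Groups came from the sample titles. The TEC loci, gene lists and comparisons were chosen with earlier results of these data known.

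Genes with a span over 200 bases and 10 or more normalized counts in 3 or more libraries were tested with limma 3.58.1 (R 4.3.3, trend, log2 of the value + 1, 6 libraries, no replicate block), with Benjamini-Hochberg adjustment. Calls needed an adjusted p under 0.05 and a change over 4-fold. Fold changes on this scale understate the change of low loci. Recovered reads were tested with edgeR 4.0.16 and DESeq2 1.42.0 as alternatives. On simulated data for 26066 genes, 200 of 200 genes changed by 3 on the log2 scale were recovered and 0 others passed both thresholds. The simulation used a fixed dispersion, not estimated from these data, and left all other genes unchanged. It is thus a check of the code and no measure of power or error for TEC loci. Locations came from GENCODE 44 with bedtools 2.31.1 and copies from blastn 2.17.0. Named loci were the 6 with the highest chromatin mean, the 6 called loci with the largest changes in each direction (3 existed towards nucleoplasm), the 5 with the highest long-read TPM, the 4 with the largest and 4 with the smallest called ratios to the host and 2 on each side of the membership minimum. Other loci were named after their values were seen. The end sequences of some named loci are not reported here. Comparisons with neighbours, the 5 kb division, base composition and the copy search were added after seeing the data. P-values measure spread between 3 cultures per fraction of 1 line.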

Additional observations from a re-analysis of the deposited data

How the results depend on the processing

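In the main fit 187 of 278 tested loci (67.3%) were called in chromatin and 3 in nucleoplasm. With a mean of at least 50, 56 of 86 loci (65.1%) were called in chromatin. Matches by identifier gave 38 of 62 (61.3%) in chromatin and 0 in nucleoplasm. Over the same 278 loci, a pseudocount of 5 gave 141 in chromatin (50.7%) and the same ERCC total 100 (35.97%) and 8. A 2-fold minimum gave 6 in nucleoplasm. The cause was not tested where fewer loci or samples do not show it. The median of all tested TEC loci of 2.70 became 2.02 with a pseudocount of 5, 1.67 with no filter, 1.48 with the same ERCC total, 3.09 with the same total and 2.94 with DESeq2. The intronic median became 3.33 with a pseudocount of 0.5, 2.39 with 5, 2.51 with no filter, 3.43 with a mean of at least 50, 1.98 (ERCC), 3.59 (same total), 3.45 (edgeR), 3.55 (DESeq2) and 2.73 (identifier). In the same order from a pseudocount of 5, the intergenic median was 1.65, 1.37, 2.28, 0.89, 2.53, 2.29, 2.39 and 2.39. The antisense median was 1.30 with a pseudocount of 5, 0.95 with no filter, 0.63 (ERCC), 2.21 (same total), 2.14 (DESeq2), 2.93 (identifier) and 2.11 when antisense position took precedence. The exon median was 1.10 with no filter, 0.73 with a mean of at least 50, 0.29 (ERCC), 1.98 (same total), 0.023 (identifier, 1 locus) and 1.24 with a Jaccard of 0.8. Protein-coding hosts alone left 0 lower ratios, and 1 TPM left 80 long-read loci. The correlation was 0.19 without division by length and 0.49 with loci at 0 kept. Signs reversed with the same ERCC total for ENSG00000280099 (-0.82), ENSG00000279700 (-1.25), ENSG00000284471 (-0.18) and ENSG00000280128 (-0.62), and with the same total for ENSG00000280649 (0.28) and ENSG00000281571 (0.17). Calls ended with the same ERCC total for ENSG00000279561 (0.75), ENSG00000279133 (1.05) and ENSG00000279088 (1.48), and with the same total for ENSG00000280325 (-1.69). With no filter, 221 of 529 loci were called in chromatin.

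Leaving out each library in turn gave 183 to 189 loci called in chromatin, 3 to 3 in nucleoplasm, 115 to 117 higher and 2 to 3 lower host ratios, and medians of 2.61 to 2.73 for all tested loci, 2.99 to 3.24 (intron), 1.95 to 2.13 (intergenic), 1.62 to 1.91 (antisense) and 1.39 to 1.70 (exon). ENSG00000279700, near 0, ranged from -0.059 to 0.12. Same-numbered libraries of the fractions deviated together with correlations of 0.0871, 0.0533 and 0.0626, each the highest for its library. Where this came from was not tested. The correlations were under 0.1 and no label ties the numbers to cultures, so the unpaired fit was kept. With the replicate block, 187 and 3 loci were called and 118 ratios to the host were higher.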

Other observations

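Outside the 541 loci, the long-read table held 511 further TEC loci, of which 77 were above 0 TPM in both libraries. Of these, 53 had no matched gene in the short-read table and 18 had a matched gene at 0. ENSG00000282542 (chr19:68403-69178, plus strand) had 46.7 and 28.5 TPM. ENSG00000279528 (chrX:48580741-48581165, plus strand) had 59.0 and 1.92 TPM, a wide spread between the libraries. ENSG00000279530 (chr12:70321542-70324274, minus strand) had 16.5 and 12.9 TPM and was at 0 in all 6 short-read libraries. These loci were chosen after their values were seen.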
